A study of Mus musculus with 36 samples.

Results

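Histone H4 regions were described where the mouse genome is most crowded with genes: regions of HA-tagged H4 whose midpoint lies in a 1 Mb window that holds the midpoints of 40 or more protein-coding genes. A region is a peak of a deposited list, so a place where the pulldown stood above its input, and the windows are fixed steps from the first base of each autosome. Regions that overlapped a region of the empty-vector pulldown were left out. Of 127347 autosomal tagged regions, 11211 were members: 6954 of 66278 for wild-type H4, 3781 of 47142 for H4K91R and 476 of 13927 for H4K91Q. The 52 dense windows are 2.11% of the 2470 autosomal windows and hold 2528 of 20665 autosomal protein-coding genes (12.2%).

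The series asks how wild-type and mutant H4 are incorporated in mouse embryonic stem cells (mESCs) and in neural cells. By their titles, the mESC lines of the series are parental or knockouts (KO), and the groups used here are all parental. The groups used here are mESCs that stably carry a PiggyBac transposon with no insert (PiggyBAC_Empty vector, here EV), with tagged wild-type H4 (PiggyBAC_H4WT_3HA, here H4WT), or with tagged H4 in which lysine 91 is arginine (PiggyBAC_H4K91R_3HA) or glutamine (PiggyBAC_H4K91Q_3HA). All were fixed with paraformaldehyde and pulled down on anti-HA beads, with 1 library per group, and 32 of the 36 samples were not analysed here. The tagged histone is made in addition to the cells' own H4, and a peak list shows where it stands above input and not how much of the nucleosome's H4 it replaces. Read numbers are absent from the lists, which leaves each library's depth unknown, and the cell type could not be checked against expressed markers. Without replicates no test was made. The exact 95% intervals below cover counting error only.

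Lysine 91 of H4 lies in the core of the nucleosome, at the contact between the H3-H4 tetramer and the H2A-H2B dimers, and can be acetylated. Arginine keeps the positive charge of lysine, and glutamine removes it. Housekeeping genes such as those for ribosomal proteins, proteasome subunits and respiratory enzymes are read in nearly every cell, mostly from promoters rich in CG dinucleotides. Olfactory, vomeronasal and other chemosensory receptor genes are short genes in long tandem clusters, are read in sensory neurons and lie silent in most other cells. Both kinds of gene crowd windows, which allows windows of the same gene density to be set side by side.

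The windows were put in classes by the symbols of their genes. A housekeeping window held 3 or more genes of a housekeeping list and under 10% chemosensory genes, and there were 12 of these, in 12 separate stretches of 6 chromosomes, with 619 genes. A receptor window held 50% or more chemosensory genes, and there were 10, in 5 stretches on chromosomes 2, 7, 9, 10 and 17, with 466 genes of which 416 were chemosensory. The other 30 dense windows held 1443 genes. Gene density was alike, with 51.6 genes per Mb in the housekeeping windows and 46.6 in the receptor windows, but the median gene was 9.08 kb long in the first and 0.957 kb in the second. Housekeeping windows are named for what they contain and are not made of such genes alone: 46 of their 619 genes were on the list.

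The 2 classes differ in the sequence at their gene starts. The 250 bases before the start are shown for 7 genes, taken from RefSeq promoters on GRCm38.p6 (the same build as mm10), 5′ to 3′ along the gene and with each CG dinucleotide in capitals. They show CG-rich starts with a region, CG-rich starts without one, a CG-rich start among the receptors and CG-poor receptor starts. They do not show how common each case is. H4WT had a region within 1 kb of either end for 510 of 619 genes of housekeeping windows. For receptor genes of the receptor windows this was 6 of 416, so a receptor gene with no H4WT region is the usual case and is not among the 7 as a gene without any tagged region. Eif4a1, an RNA helicase of translation initiation, had an H4WT and an H4K91R region within 1 kb of its start, in a housekeeping window (chr11:69672424-69672673, minus strand, 18 CG). Atp5b, the beta subunit of ATP synthase (chr10:128083057-128083306, plus strand, 14 CG), and Cox6b1, a subunit of cytochrome c oxidase (chr7:30626115-30626364, minus strand, 14 CG), lie in housekeeping windows and had no tagged region within 1 kb of either end. Rhog (chr7:102250119-102250368, minus strand, 19 CG), had regions of both and lies in a receptor window. Of the receptor genes, Olfr94 (chr17:37197967-37198216, 2 CG) had H4WT and H4K91R regions within 1 kb of its start, with summits 463 and 522 bases after it. Both regions also lie within 1 kb of its other end. Of the tagged lists, Olfr113 (chr17:37575422-37575671, 0 CG) had only an H4K91Q region, at its other end, and Olfr1166 (chr2:88124994-88125243, 0 CG) only an H4WT region, also at its other end. All 3 receptor genes are on the minus strand.
Eif4a1: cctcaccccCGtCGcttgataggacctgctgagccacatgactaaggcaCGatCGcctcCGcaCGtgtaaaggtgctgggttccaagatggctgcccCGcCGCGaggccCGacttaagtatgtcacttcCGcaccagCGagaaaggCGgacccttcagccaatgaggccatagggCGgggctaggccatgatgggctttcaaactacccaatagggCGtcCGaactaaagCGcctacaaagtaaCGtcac
Atp5b: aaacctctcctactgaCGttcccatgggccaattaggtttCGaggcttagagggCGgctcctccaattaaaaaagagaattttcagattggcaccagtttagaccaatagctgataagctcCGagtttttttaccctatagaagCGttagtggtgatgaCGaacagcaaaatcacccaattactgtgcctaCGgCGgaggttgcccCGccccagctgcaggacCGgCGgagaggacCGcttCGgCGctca
Cox6b1: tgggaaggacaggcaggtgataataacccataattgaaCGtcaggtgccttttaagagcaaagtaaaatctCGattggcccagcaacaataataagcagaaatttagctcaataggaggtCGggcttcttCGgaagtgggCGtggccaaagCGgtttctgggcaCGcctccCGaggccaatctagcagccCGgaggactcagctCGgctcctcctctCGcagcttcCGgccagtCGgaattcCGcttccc
Rhog: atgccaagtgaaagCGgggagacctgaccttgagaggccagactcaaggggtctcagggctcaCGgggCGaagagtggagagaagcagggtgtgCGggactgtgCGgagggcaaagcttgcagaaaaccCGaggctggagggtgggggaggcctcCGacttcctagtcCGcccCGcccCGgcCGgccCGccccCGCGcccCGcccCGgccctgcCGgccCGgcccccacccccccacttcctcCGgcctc
Olfr94: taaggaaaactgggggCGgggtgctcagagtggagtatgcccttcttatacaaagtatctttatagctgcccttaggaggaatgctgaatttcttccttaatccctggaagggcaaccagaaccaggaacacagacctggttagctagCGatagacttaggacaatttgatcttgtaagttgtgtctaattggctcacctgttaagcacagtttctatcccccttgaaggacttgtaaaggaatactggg
Olfr113: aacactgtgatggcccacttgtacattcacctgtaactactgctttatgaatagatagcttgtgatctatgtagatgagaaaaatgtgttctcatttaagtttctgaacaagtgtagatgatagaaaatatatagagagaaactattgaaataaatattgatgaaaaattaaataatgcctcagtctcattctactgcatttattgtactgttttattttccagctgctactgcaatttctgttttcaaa
Olfr1166: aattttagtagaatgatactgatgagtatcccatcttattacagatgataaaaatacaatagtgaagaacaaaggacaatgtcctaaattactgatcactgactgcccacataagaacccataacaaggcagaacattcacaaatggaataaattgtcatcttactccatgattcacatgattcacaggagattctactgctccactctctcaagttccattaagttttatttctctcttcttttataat

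Wild-type H4 regions were dense in the housekeeping windows and scarce in the receptor windows, although both are packed with genes. H4WT had 2377 regions in the 12 Mb of housekeeping windows, or 198 per Mb (190.2 to 206), and 75 in the 10 Mb of receptor windows, or 7.5 per Mb (5.90 to 9.40). The ratio was 26.4 (21.0 to 33.7), and it went from 13.9 to 59.9 under other window limits and list cuts. The receptor windows stood below the autosomes outside dense windows, where H4WT had 24.5 regions per Mb, by a ratio of 0.306 (0.240 to 0.383). In single windows the H4WT counts went from 62 to 477 with a median of 166.5 in the housekeeping class and from 2 to 24 with a median of 5 in the receptor class, so the classes did not overlap.

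H4K91R showed the same order with a smaller gap. It had 1261 regions in housekeeping windows (105 per Mb, 99.4 to 111) and 110 in receptor windows (11 per Mb, 9.04 to 13.3), a ratio of 9.55 (7.86 to 11.7). Its single windows held 35 to 230 regions in the first class and 3 to 25 in the second, again without overlap. Against the rest of the autosomes (17.9 per Mb) the receptor windows had a ratio of 0.613 (0.504 to 0.740).

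With the windows as set, H4K91Q did not follow the 2 kinds of window. It had 101 regions in housekeeping windows (8.42 per Mb, 6.86 to 10.2) and 90 in receptor windows (9 per Mb, 7.24 to 11.1), and the ratio of 0.935 had an interval from 0.697 to 1.26. With windows that start at 500 kb in place of 0 the ratio was 1.58 (1.13 to 2.23), and with 50 or more genes it was 0.512 (0.304 to 0.882). Both intervals leave out 1, on opposite sides, so the H4K91Q ratio depends on how the windows are set. The window counts overlapped, with 0 to 20 in the housekeeping class and 1 to 26 in the receptor class. Both classes were denser than the rest of the autosomes (5.56 per Mb), by 1.51 (1.23 to 1.84) and 1.62 (1.30 to 1.99). The H4K91Q list is the shortest of the tagged lists, and the part that depth has in its counts was not tested.

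The empty vector shows how much of such a contrast a pulldown with no tagged histone gives. EV had 99 regions in the housekeeping windows (8.25 per Mb) and 9 in the receptor windows (0.9 per Mb), a ratio of 9.17 with an interval from 4.64 to 20.6. That interval holds the H4K91R ratio and lies below the H4WT value. EV regions were removed from the tagged lists, and with them kept the ratios were 26.0 for H4WT, 9.56 for H4K91R and 0.935 for H4K91Q. Beyond those shared places, the part that the background has in the tagged lists was not tested. Receptor families also hold near-identical copies, and how reads that align in several places were handled is not given in the sources used here.

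**Figure D1:**
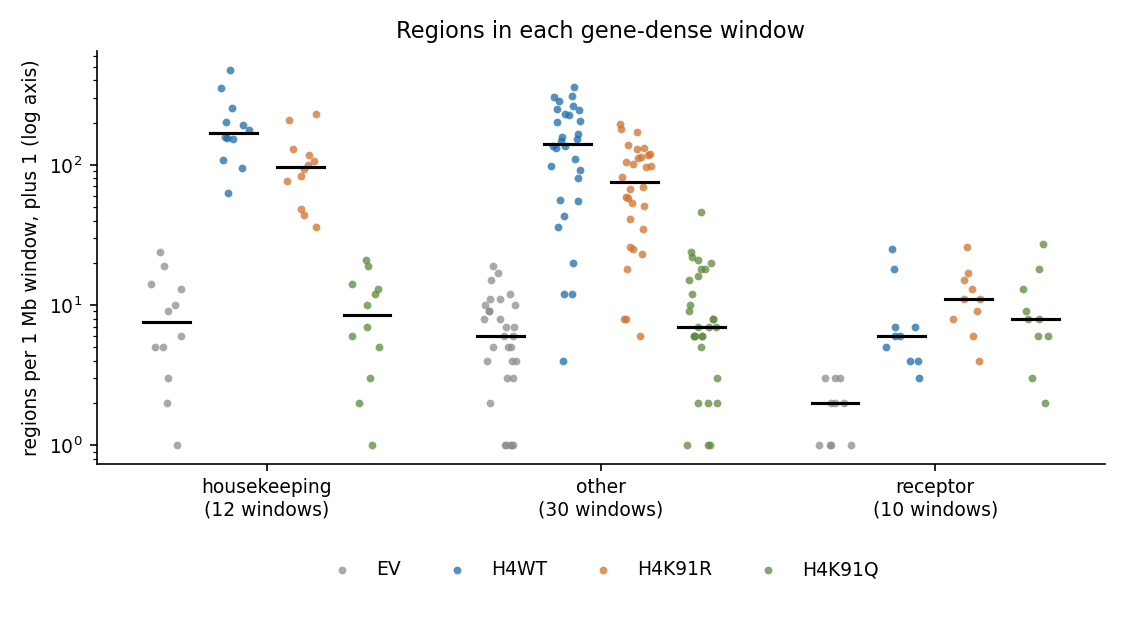
Regions per 1 Mb window, plus 1, on a log axis, for each of the 52 gene-dense windows by class of window and pulldown, where each point is a window and each bar the class median. H4WT points lie between 62 and 477 regions in housekeeping windows and between 2 and 24 in receptor windows, while H4K91Q points overlap between the classes.

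The other dense windows lay near the housekeeping windows for H4WT and H4K91R, with 150.1 and 80.3 regions per Mb, and H4K91Q had 9.5 there. In all, the members were 10.5% of the H4WT list (10.3 to 10.7), 8.02% of the H4K91R list (7.78 to 8.27) and 3.42% of the H4K91Q list (3.12 to 3.73), and 9.46% of EV regions (8.44 to 10.6) lay in dense windows. Windows just short of the limit, with 35 to 39 genes, had 138.5 H4WT regions per Mb where under 10% of genes were chemosensory (20 windows) and 12.2 where 50% or more were (5 windows). Just past it, at 40 to 44 genes, the values were 119.8 (12 windows) and 7.5 (4 windows). Single windows of 35 to 39 genes had 20 to 248 and 9 to 17 H4WT regions, which did not overlap. Those of 40 to 44 genes had 3 to 307 and 3 to 17, which did, through a window of defensin genes with 3.

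Single housekeeping windows differed from each other by a wide margin. The window with most H4WT regions was on chromosome 10 from 80 to 81 Mb, with 54 genes, among them Polr2e, Atp5d, Ndufs7, Rps15, Uqcr11, Sf3a2, Lsm7 and Timm13, and with 477 H4WT, 230 H4K91R and 4 H4K91Q regions. Next came chromosome 8 from 70 to 71 Mb, with 352, 208 and 0. Chromosome 7 from 45 to 46 Mb held 254, 128 and 5. Chromosome 11 from 115 to 116 Mb held 202, 116 and 9, and chromosome 7 from 28 to 29 Mb held 190, 98 and 18.

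The fewest H4WT regions of the class lay on chromosome 3 from 95 to 96 Mb (Psmd4, Tars2, Prpf3 and Mrps21), with 62 H4WT, 35 H4K91R and 13 H4K91Q regions. Chromosome 11 from 101 to 102 Mb (Psme3 and Rpl27) had 94, 43 and 12. Chromosome 10 from 128 to 129 Mb (Atp5b, Rpl41 and Rps26) had 107, 47 and 2, chromosome 17 from 24 to 25 Mb had 152, 92 and 6, and chromosome 7 from 30 to 31 Mb had 154, 82 and 20. H4K91R took a similar order to H4WT over these windows. H4K91Q did not, with 4 and 0 regions in the 2 windows of most H4WT regions and 13 and 12 in the 2 of fewest.

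H4WT regions were spread unevenly over the receptor windows. Chromosome 7 from 102 to 103 Mb, where 31 of 46 genes are chemosensory, had 24 H4WT, 14 H4K91R and 1 H4K91Q regions, and chromosome 17 from 37 to 38 Mb, with 36 of 42, had 17, 16 and 7. The other 8 windows had 2 to 6 H4WT regions each, among them chromosome 7 from 104 to 105 Mb, where 30 of 48 genes are chemosensory, with 4. The mutants were at their most on chromosome 9 from 38 to 39 Mb, where 43 of 44 genes are chemosensory, with 25 H4K91R and 26 H4K91Q regions beside 5 of H4WT. On chromosome 10 from 129 to 130 Mb the counts were 2 for H4WT, 10 for H4K91R and 17 for H4K91Q, and on chromosome 2 from 86 to 87 Mb they were 3, 10 and 12.

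The nearest gene of a receptor-window region was chemosensory for 45 of 75 H4WT regions (60%), 95 of 110 H4K91R regions (86.4%) and 90 of 90 H4K91Q regions. As a base, 416 of all 466 genes of these windows are chemosensory, and for EV it was 6 of 9 regions. Near does not mean at the gene. The median distance to the nearest gene was 1.45 kb for H4WT, 7.38 kb for H4K91R and 10.4 kb for H4K91Q, and regions over 5 kb from any gene were 32 of 75, 74 of 110 and 71 of 90. A chemosensory gene was overlapped by 5, 2 and 2 regions.

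By place, most members in housekeeping windows lay in or at genes. For H4WT, 31.4% of regions had their midpoint within 1 kb of a gene end, 59.9% elsewhere in a gene and 8.71% outside, where these places make up 16.9%, 55.0% and 28.2% of the length of the windows. H4K91R had 29.9%, 58.0% and 12.1%. H4K91Q was placed otherwise, with 4.95% at gene ends (1.63 to 11.2), 34.7% in genes and 60.4% outside (50.2 to 70.0).

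In receptor windows gene ends take 14.7% of the length, the rest of genes 9.58% and the space outside 75.7%. H4WT regions there were at gene ends in 21.3% of cases (12.7 to 32.3) and outside in 50.7%, while H4K91R had 8.18% (3.81 to 14.96) and 85.5% (77.5 to 91.5). H4K91Q had 2.22% at gene ends and 96.7% outside (90.6 to 99.3). The share outside was therefore below the share of length for H4WT and above it for both mutants, with intervals that leave out the share of length.

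Whole genes were called marked where a region lay within 1 kb of either end. H4WT marked 510 of 619 genes of housekeeping windows (82.4%, 79.2 to 85.3) and 16 of 466 of receptor windows (3.43%, 1.98 to 5.52), beside 60.8% of all autosomal protein-coding genes. H4K91R marked 349 (56.4%) and 7 (1.502%), beside 39.8%. H4K91Q marked 4 and 2, beside 1.33%, and EV marked 28 and 5, beside 1.76%. In the housekeeping windows 92 genes (14.9%) had no tagged region at either end, and in the receptor windows 448 (96.1%) had none.

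The 416 receptor genes of the receptor windows were marked in 6 cases by H4WT, 1 by H4K91R and 2 by H4K91Q, and EV marked 3. For H4WT this is 1.44% (0.531 to 3.11), and for H4K91Q 0.481% (0.0583 to 1.73), and both intervals hold the EV share of 0.721%. The 1030 chemosensory genes outside dense windows had 20, 20 and 9 marked by H4WT, H4K91R and H4K91Q, and 1 by EV. The gene family was thus sparsely marked in either setting. Outside dense windows the H4WT and H4K91R shares, each 1.94% (1.19 to 2.98), stood above the EV share of 0.0971% (0.00246 to 0.540). The H4K91Q interval there (0.400 to 1.65) overlapped that of EV. The naming rule took 3 of the 6 marked by H4WT and both marked by H4K91Q. These were Olfr94 (authors' fold of 9.12 in H4WT and 5.16 in H4K91R), Olfr1166 (5.57 in H4WT), Olfr551 (5.52 in H4WT), Olfr113 (6.40 in H4K91Q) and Olfr1055 (4.79 in H4K91Q).

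The 50 other genes of the same windows were marked by H4WT in 10 cases (20%, 10.03 to 33.7), beside 60.8% of all autosomal protein-coding genes. H4K91R marked 6 (12%, 4.53 to 24.3), beside 39.8%. EV marked 2 (4%, 0.488 to 13.7), an interval that overlaps that of H4K91R. Those marked by H4WT were Nup98, a nuclear pore protein, with Pgap2 (one region of fold 7.18, whose summit lies in Nup98, 374 bases from its start), Rrm1, the large subunit of ribonucleotide reductase (fold 4.92), Rhog (10.9), Xndc1 (4.19) and Trim68 (5.34). Also marked were Gabbr1, a GABA-B receptor subunit (9.26), Chrna10, a nicotinic receptor subunit (10.3), H2-M3, a class Ib MHC protein (5.92), and Ubd, which shares the region of Olfr94. The 12 Trim genes there had 1 marked by H4WT, the 5 beta-globin genes Hbb-bt, Hbb-bs, Hbb-bh2, Hbb-bh1 and Hbb-y had 0, and the 8 Usp17l and Ubqln genes had 0.

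**Figure D2:**
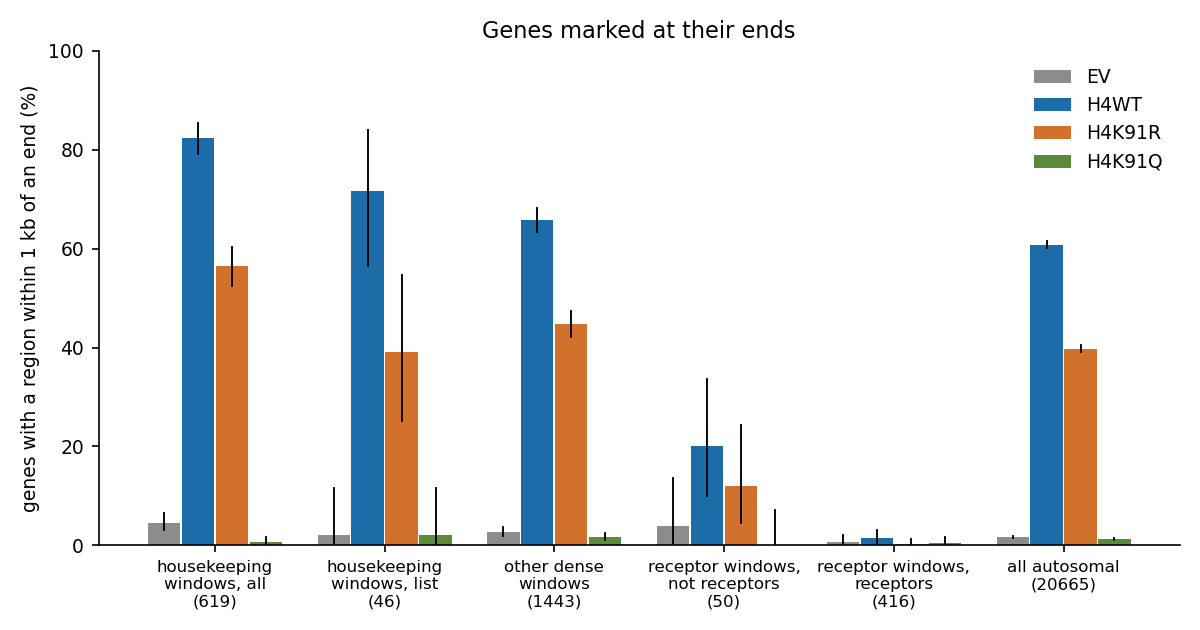
Share of protein-coding genes with a region within 1 kb of either end, by set of genes (number of genes in parentheses) and pulldown, with exact 95% intervals. H4WT bars reach 82.4% in housekeeping windows and 1.44% for receptor genes in receptor windows, and H4K91Q and EV bars stay low in every set.

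Listed housekeeping genes were set beside other genes by kind of window. In the housekeeping windows H4WT marked 33 of 46 listed genes (71.7%, 56.5 to 84.0) and 477 of the 573 other genes (83.2%, 79.9 to 86.2). H4K91R marked 18 (39.1%, 25.1 to 54.6) and 331 (57.8%, 53.6 to 61.8). In the other dense windows H4WT marked 25 of 28 listed genes (89.3%, 71.8 to 97.7), beside 950 of all 1443 genes there (65.8%, 63.3 to 68.3). That base is unlike the one above, as it takes in the listed genes and 65 chemosensory genes. The H4WT intervals of listed genes in housekeeping and in other dense windows overlapped. In all dense windows H4WT marked 58 of 74 listed genes (78.4%, 67.3 to 87.1), close to the 347 of 453 outside dense windows (76.6%, 72.4 to 80.4).

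Among listed genes, the highest H4WT fold was 15.7 at Lsm7, a ring protein of RNA decay and splicing. That region lies before the start of Lsm7, with its summit at -427 bases from it, and covers the start of its neighbour Sppl2b. Timm50, of the mitochondrial inner-membrane translocase, had 13.5, with the summit 261 bases after the start. Actg1, which encodes gamma-actin, had 12.6 in H4WT, 25.2 in H4K91R and 7.56 in H4K91Q, each to be read against its own list alone. Eif4a1 and Mrps7, a mitochondrial ribosomal protein, had 11.6, Tomm34, of mitochondrial import, 10.9, Sf3a2, of the spliceosome, 10.7, and Vars, the valine tRNA synthetase, 10.7. The regions of Mrps7 and Sf3a2 also lay before the start, with summits at -465 and -819 bases from it. No H4WT region lay at Atp5b, Cox6b1, Lsm4, Mrpl11, Mrpl22, Mrpl58, Mrps18b or Mrps21, of which Mrpl58 had an H4K91R region of fold 5.24.

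H4WT regions sat at the start of genes more than at the other end. Of 513 genes in housekeeping windows with a RefSeq promoter, 70.2% (66.0 to 74.1) had an H4WT region within 1 kb of the start, beside 58.6% of all such autosomal genes, and 50.7% within 1 kb of the other end, beside 18.4%. For H4K91R the start share was 43.3%, beside 35.5%, and the other-end share 26.9%, beside 11.3%. H4K91Q had 2 starts (0.390%), beside 0.632%, and 2 other ends, beside 0.881%. EV had 8 starts (1.56%), beside 0.814%, and 18 other ends (3.51%), beside 1.11%. In the receptor windows 10 of 399 genes had an H4WT region at the start and 6 at the other end. The median gene there is 0.957 kb long, so a region can lie within 1 kb of both ends.

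In dense windows another gene's start often lay near a gene's far end. Among the 1595 non-chemosensory genes of dense windows, 255 (16.0%) had another gene's start within 2 kb of the far end, against 4.81% of genes outside dense windows. H4WT held 63.9% of such far ends and 39.6% of the 1340 without a near start. Outside dense windows the shares were 48.3% and 14.4%, with chemosensory genes included there. The median gene was 5.68 kb long in dense windows and 20.6 kb outside them. In a short gene a region at its own start can also lie within 1 kb of its far end, and the part of this was not tested.

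Seen base by base, H4WT regions were most frequent 200 bases after the start, where they covered 48.5% of the genes of housekeeping windows. At the start itself 30.4% were covered, close to the 29.0% of all autosomal genes with a RefSeq promoter. At 1 kb before the start the share in housekeeping windows was 4.68%. H4K91R peaked there 250 bases after the start at 18.5%, and covered 12.1% at the start itself, beside 11.4% of all. H4K91Q did not exceed 0.780% at any distance up to 5 kb. In receptor windows the highest values were 1.75% for H4WT and 1.504% for H4K91R. The nearest H4WT region was a median of 103 bases from the start in housekeeping windows and 67.9 kb from the start of a receptor gene, where H4K91R was 50.5 kb and H4K91Q 63.4 kb away. Over all autosomal genes with a RefSeq promoter the H4WT median was 172 bases.

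**Figure D3:**
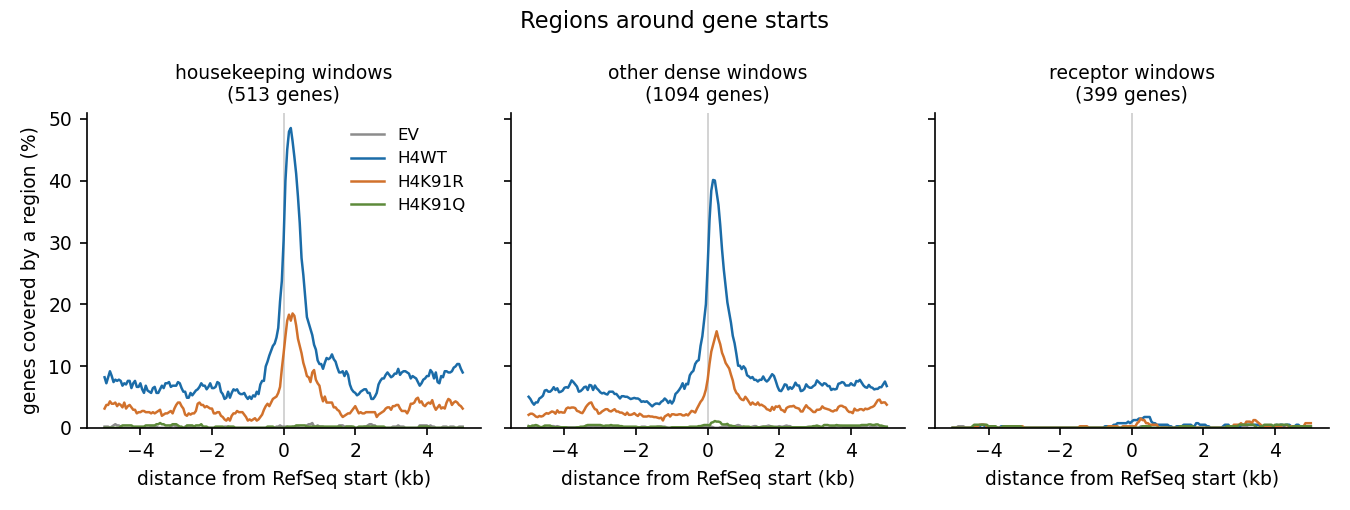
Share of genes covered by a region at each distance from the RefSeq start, from 5 kb before to 5 kb after in the direction of the gene, by class of window and pulldown. The H4WT line peaks at 48.5% just after the start in housekeeping windows and at 40.1% in other dense windows, and no line exceeds 1.75% in receptor windows.

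The CG content of promoters split the classes, and it was not used to choose them. In the 300 bases from 250 before to 50 after the start, the median was 16 CG dinucleotides in housekeeping windows (observed over expected 0.647), 1 for receptor genes of the receptor windows (0.113), 3 for the other genes there and 14 for all autosomal genes. Promoters with an H4WT region at the start had a median of 18 in the housekeeping windows and of 17 in the receptor windows, where only 10 had one. The 3 motifs searched on both strands as exact letters were unevenly held. GGGCGG was in 55.9% of promoters of housekeeping windows, 3.26% of those of receptor windows and 47.3% of all. TATAAA was in 8.58%, 46.4% and 13.5%, and CCGGAAG in 14.8%, 0% and 12.3%. A match of letters is a description and not a binding site.

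At like CG content the classes were nearer to each other at the rich end and further apart at the poor end. Of promoters with 15 or more CG, H4WT held 224 of 282 in housekeeping windows (79.4%, 74.2 to 84.0) and 6 of 9 in receptor windows (66.7%, 29.9 to 92.5). None of those 9 belongs to a receptor gene. Of promoters with 0 to 2 CG, it held 9 of 23 in housekeeping windows (39.1%, 19.7 to 61.5), 42 of 220 in other dense windows (19.1%, 14.1 to 24.9), 148 of 2472 outside dense windows (5.99%, 5.08 to 6.996) and 1 of 343 in receptor windows (0.292%, 0.00738 to 1.61). H4K91R followed with 8 of 23, 27 of 220, 87 of 2472 and 0 of 343. A region within 1 kb of such a start can belong to a neighbour, more often so where genes are close, and the part of this was not tested.

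**Figure D4:**
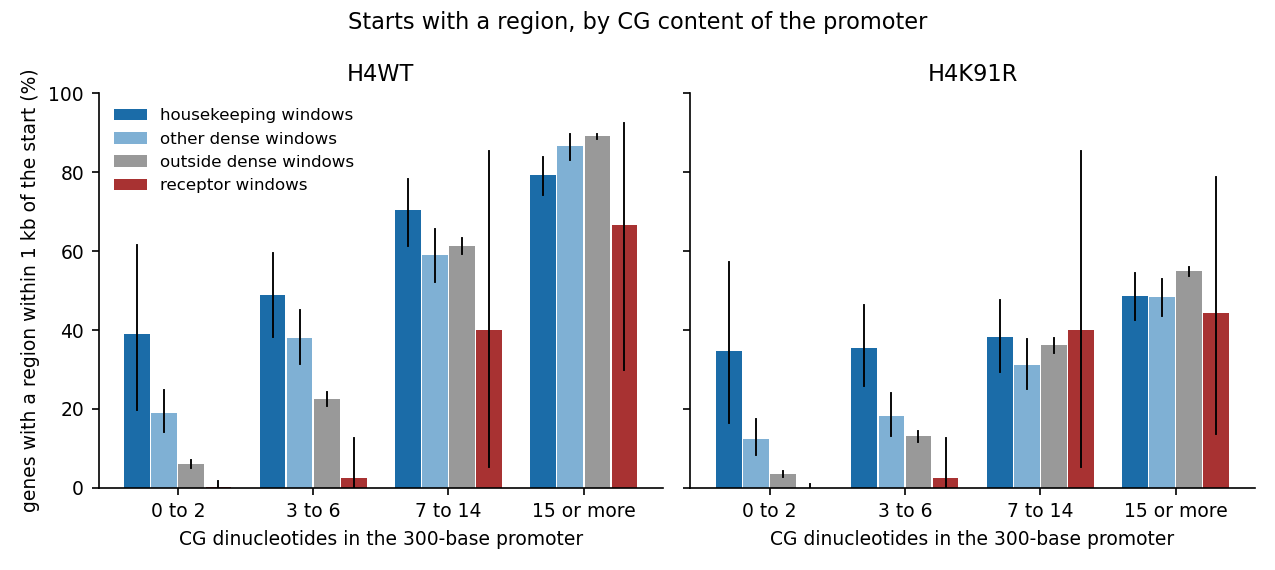
Share of genes with an H4WT (left) or H4K91R (right) region within 1 kb of the start, by number of CG dinucleotides in the 300-base promoter and class of window, with exact 95% intervals. In the band of 0 to 2 CG, H4WT stands at 39.1% in housekeeping windows, 19.1% in other dense windows, 5.99% outside dense windows and 0.292% in receptor windows.

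Listed housekeeping genes were the CG-rich genes with fewer regions at the start. Of their promoters with 15 or more CG in dense windows, H4WT held 39 of 56 (69.6%, 55.9 to 81.2), beside 580 of 684 for genes on neither list (84.8%, 81.9 to 87.4). Outside dense windows the shares were 227 of 288 (78.8%, 73.6 to 83.4) and 6273 of 7006 (89.5%, 88.8 to 90.2). H4K91R gave 28.6% (17.3 to 42.2) and 50% (46.2 to 53.8) in dense windows, and 37.2% (31.6 to 43.0) and 55.6% (54.5 to 56.8) outside them. The order was the same in each setting and for both lists, and the intervals did not overlap.

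Which lists shared a place also split the windows. Of H4K91R regions, 75.2% (72.7 to 77.5) overlapped an H4WT region in housekeeping windows and 30.9% (22.4 to 40.4) in receptor windows, beside 52.6% outside dense windows. With H4K91Q the order turned, at 5.47% (4.28 to 6.87) in housekeeping windows and 38.2% (29.1 to 47.9) in receptor windows, beside 16.6%. From the H4K91Q list, 66.3% (56.2 to 75.4) of regions overlapped H4K91R in housekeeping windows and 45.6% (35.02 to 56.4) in receptor windows, while 26.7% and 10% overlapped H4WT. From the H4WT list, 38.0% and 46.7% overlapped H4K91R, and 1.14% and 12% overlapped H4K91Q. These shares depend on the lengths of the lists, which are unequal.

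Merged over the 3 lists, the housekeeping windows had 2648 places. In 55.6% only H4WT was present, in 30.8% H4WT and H4K91R, and in 10.1% only H4K91R. The receptor windows had 190 places, of which H4WT alone held 20.5%, H4K91R alone 21.6%, H4K91Q alone 25.3% and both mutants without H4WT 15.3%. Places of both mutants without H4WT were 1.28% in housekeeping windows, and 5.09% outside dense windows. In the receptor windows 29 such places were found, and all 29 lay outside genes and their 1 kb flanks.

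**Figure D5:**
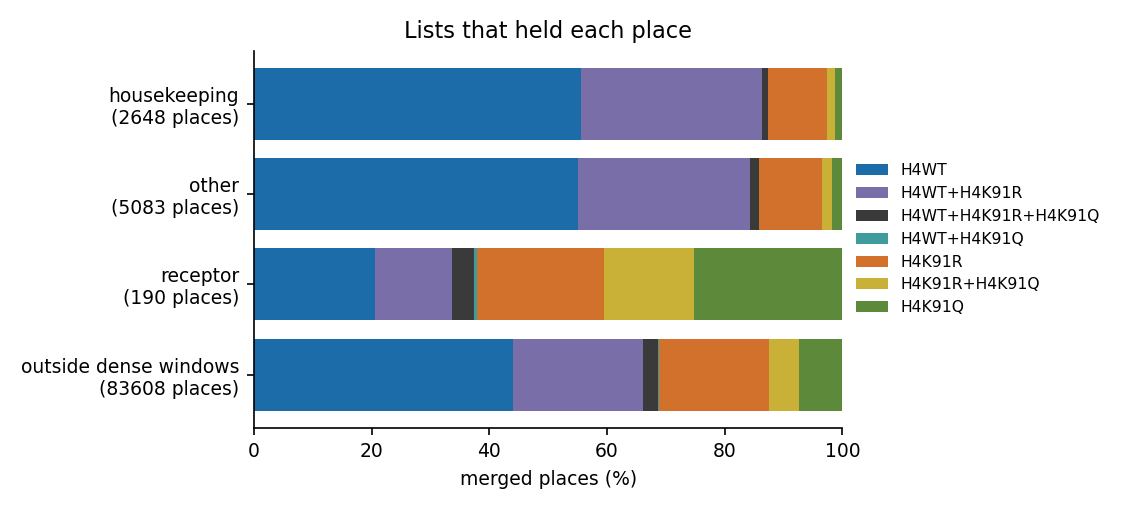
Share of merged places held by each combination of the 3 tagged lists, by class of window, with the number of places in parentheses. H4WT alone makes up 55.6% and H4WT with H4K91R 30.8% of the places of housekeeping windows, while H4K91Q alone makes up 25.3% in receptor windows.

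Rank within a list also differed by class of window. Of H4WT regions in housekeeping windows, 26.2% (24.4 to 28.0) were in the top 20% of their autosomal list by authors' fold, and of those in receptor windows 14.7% (7.56 to 24.7). For H4K91R the shares were 15.8% (13.8 to 17.9) and 30% (21.6 to 39.5), and for H4K91Q 11.9% (6.29 to 19.8) and 30% (20.8 to 40.6). So the few mutant regions of the receptor windows ranked high in their own lists more often than those of housekeeping windows. Median widths in housekeeping and receptor windows were 299 and 219 bp for H4WT, 277 and 270 bp for H4K91R, and 318 and 318.5 bp for H4K91Q.

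One place led the receptor windows in every list. It lies outside genes, 3.81 kb from Olfr1257 on chromosome 2, at chr2:89876603-89877020 in H4WT, with an authors' fold of 11.7 (above 98.2% of the list), 19.6 in H4K91R (above 99.6%) and 10.2 in H4K91Q (above 97.5%). The next H4WT regions there lay in Stim1, the calcium sensor of the endoplasmic reticulum (11.2), at Rhog (10.9) and in Chrna10 and Art1 (10.6 and 10.3). The next H4K91R regions lay outside genes, near Olfr926 (11.6), Olfr1130 (10.04) and Olfr97 (9.78), none of which overlapped H4WT. The H4K91Q regions near Olfr1084 (9.26), Olfr1198 (9.14), Olfr116 (8.37) and Olfr1049 (8.22) did not overlap H4WT either.

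In housekeeping windows the H4WT list was led by regions at Sppl2b (15.7), Hs3st6 (15.5), Onecut3 (15.3), Pik3r2 (14.8) and H2-Q2 (14.4), all of which except that of Sppl2b overlapped H4K91R and none H4K91Q. H4K91R was led by Trim80 (18.4), by a region inside Gm9573, a predicted gene (17.97), and by Sumo2, a SUMO protein (17.5), and all 3 were shared by all lists. H4K91Q was led by regions near Mmp19 (9.18), in Tmem104 (8.79) and near Eid2 (8.68). It marked 4 genes of these windows: Trim80, Sumo2, Sars2 and Nphs1.

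The other dense windows held gene families of many kinds. The strongest region of all 3 lists in dense windows lay in Zfp629 on chromosome 7, with folds of 29.9, 54.8 and 20.8. Of 55 zinc finger genes H4WT marked 34 (61.8%), near the 60.8% of all genes, and of 57 clustered protocadherin genes 38 (66.7%). H4K91R marked 13 of the protocadherins (22.8%, 12.7 to 35.8), beside 39.8% of all genes, and H4K91Q 0. Genes of such a cluster can overlap and share an end, so a region can mark several of them. The interval counts them as separate genes. Of 50 keratin and keratin-associated genes H4WT marked 29 (58%, 43.2 to 71.8) and H4K91Q 4 (8%, 2.22 to 19.2), beside 1.33%. EV marked 2 of the 50 (4%, 0.488 to 13.7), an interval that overlaps that of H4K91Q. The 4 marked by H4K91Q were Krtap4-6, Krtap4-8, Krtap4-9 and Krtap9-5, all on chromosome 11 from 99 to 100 Mb. They encode hair proteins, belong to a family of near-identical copies and have 0 or 1 CG in the promoter.

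Listed families with few H4WT marks were the immune receptors with 1 of 12 (8.33%, 0.211 to 38.5), the histone genes with 7 of 50 (14%, 5.82 to 26.7), the cornified-envelope genes with 8 of 34 (23.5%, 10.7 to 41.2) and the kallikreins with 7 of 26 (26.9%, 11.6 to 47.8), each with an interval below 60.8%. Many histone genes are near-identical copies, between which reads may not have been told apart. The window on chromosome 8 from 21 to 22 Mb, singled out after its values were seen, holds 41 genes, mostly of defensins, secreted antimicrobial peptides, and none of them is chemosensory. It had 3 H4WT, 5 H4K91R and 5 H4K91Q regions, and 0 of its genes were marked by any list. The MHC genes had 9 of 19 marked by H4WT (24.4 to 71.1%) and 11 by H4K91R (33.5 to 79.7%), intervals that hold the 60.8% and 39.8% of all genes. Among them were H2-Q6 (8.33) and H2-Q7 (8.59), marked by H4K91R alone of the tagged lists once regions overlapping EV were left out. EV itself marked 2 of the 19 MHC genes (10.5%, 1.30 to 33.1), beside 1.76% of all genes. Whether an H4WT region at H2-Q6 or H2-Q7 was left out for that overlap was not tested. H4K91R regions without H4WT also lay at H2bc1 and H2ac1, which share a region of fold 9.06, at Batf2 (6.60), Fdxr (6.43) and Dhx58 (6.20). The window with most H4K91Q regions was on chromosome 7 from 19 to 20 Mb, with 45 beside 284 of H4WT and 194 of H4K91R.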

How the data were processed

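Anti-HA ChIP-seq peak lists of 4 mESC pulldowns were used, with groups taken from the sample titles and 1 library per group. Per the submitters' processing notes, peaks were called with MACS2 on mm10, and the peak names show that every pulldown had its own line's input as control. For the aligner, the q threshold and the handling of duplicate or multiply aligned reads, nothing is given in the sources used here. The deposited columns are a score (the −log10 q times 10, rounded down, in 100% of peaks), an authors' fold (a ratio to background), a −log10 p that was not used and a −log10 q that served to filter and shorten lists. Fold was described within a list only. Depth is unknown, as no read numbers are listed.

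Tagged regions overlapping an EV region by 1 bp or more were left out. Genes came from the RefSeq table of GRCm38.p6, which has no strand, and starts and strand from RefSeq promoters (16457 of 20665 autosomal protein-coding genes, 2006 of 2528 in dense windows). Where a gene had several promoters, that nearest its outermost end was taken. Gene lists are symbol patterns, and the housekeeping pattern also took Psmc3ip and Eef1akmt3, which are not subunits of the named machines. Shares have Clopper-Pearson intervals, densities Poisson intervals and ratios exact conditional intervals, all at 95% and computed with scipy 1.17.1 and pandas 2.3.3. Overlap and placement steps were tested on simulated regions. The alternatives were other window limits and starts, list cuts, gene-end windows, overlaps and covered bases.

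The members, lists and rules were chosen with earlier results of these data known. The named genes are, per tagged list, the 10 marked genes of highest fold, passing over predicted ones, then listed housekeeping genes of highest H4WT fold or without H4WT (8 each), marked chemosensory genes and genes of a mutant without H4WT (up to 10 each), and up to 3 per family. The 5 regions of highest fold per list and class are named too, and not all are printed. The 7 sequences were taken from named genes whose 250 upstream bases overlap no other gene. Marked non-receptor genes of receptor windows, globin, Trim and protocadherin genes, far ends near other starts, housekeeping genes by CG content and rank within a list were added after the values were seen.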

Additional observations from a re-analysis of the deposited data

Results flagged for a closer look

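The ratio of regions per Mb between housekeeping and receptor windows was above 1 for H4WT (26.4) and H4K91R (9.55) and below 1 for H4K91Q (0.935). The ratio between receptor windows and the autosomes outside dense windows was below 1 for H4WT (0.306) and H4K91R (0.613) and above 1 for H4K91Q (1.62). Both contrasts stand here because the libraries went opposite ways. Neither difference between libraries was tested, with 1 library per group, and the H4K91Q interval of the first ratio holds 1.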

How the results depend on the processing

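No paired analysis was possible because each group has 1 library, and no library could be left out for the same reason. Of 104 values recomputed under alternatives, 52 stayed within the interval of the main value (for counts, within 1.5 times) and 51 moved beyond it. The remaining 1, the H4K91Q ratio with windows from 500 kb, was reversed. The housekeeping to receptor ratio stayed above 1 for H4WT and H4K91R in all 12 settings run. For H4K91Q, where it was 0.935, it lay above 1 in 5 of them: 1.58 with windows from 500 kb, 1.22 and 1.06 with 5 or more and 2 or more housekeeping genes, 1.07 in covered bases and 1.01 with 30% chemosensory genes.

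With windows of 30 or more genes, dense windows held 20.02% of H4WT, 15.4% of H4K91R and 7.51% of H4K91Q regions, and the ratio was 14.5 for H4WT and 6.78 for H4K91R. With 50 or more genes, which leaves 2 receptor windows, the shares were 5.80%, 4.43% and 1.48% and the ratios 59.9, 13.9 and 0.512. With windows from 500 kb, dense windows held 9.52% of H4WT and 7.30% of H4K91R regions, and the ratios were 34.3, 14.97 and, for H4K91Q, 1.58; the cause was not tested. Peaks with a −log10 q of 5 or more gave shares of 11.5% and 8.32%, ratios of 37.4 and 7.85, 225 genes of housekeeping windows marked by H4K91R and 32.4% of dense H4WT regions at gene ends.

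With lists of equal length, H4WT had a dense share of 13.8% and a ratio of 46.5. H4WT then marked 314 genes of housekeeping and 5 of receptor windows, and H4K91R 135 and 2. Overlaps in dense windows were then 28.5% of H4WT with H4K91R, 51.2% of H4K91R with H4WT, 12.8% of H4K91Q with H4WT and 43.7% of H4K91Q with H4K91R, where the full lists gave 38.0%, 72.7%, 26.5% and 62.2%. An overlap of 50% of each region gave 23.0%, 42.3%, 13.7% and 34.03%.

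For H4WT the ratio was 34.1 in covered bases (share 11.4%), 44.5 with 5 or more housekeeping genes (14.9 for H4K91R), 13.9 with 30% and 33.7 with 80% chemosensory genes. Gene-end windows of 500 bp put 20.1%, 17.4% and 4.83% of dense H4WT, H4K91R and H4K91Q regions at gene ends, and 2 kb put 45.5%, 43.9% and 13.7% there, beside 30.8%, 29.3% and 7.35% at 1 kb. With 2 kb H4K91R marked 11 genes of receptor windows and H4K91Q 10 of housekeeping windows, and with whole genes 12 and 22. Without Psmc3ip and Eef1akmt3, chosen after seeing the data, the ratios were 27.7, 10.1 and 0.899. Leaving out single windows, also added later, moved the H4WT ratio between 23.0 and 34.96, H4K91R between 8.52 and 11.1 and H4K91Q between 0.818 and 1.18.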
